A study of Mus musculus with 6 samples.

Results

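The circadian clock genes Arntl, Clock, Per1, Per2, Per3, Cry1, Cry2, Nr1d1, Nr1d2 and Dbp were examined for binding of FXR, the bile acid-sensing nuclear receptor, in mouse liver with and without hepatocyte BCL6. A peak was taken as belonging to a clock gene when the gene name assigned to it by the authors was one of these 10. The rule found 23 of 20040 peaks in the WT list and 18 of 12495 in the LKO list, or 41 of 32535 in all, and 9 of the 10 genes had a peak in each list. Clock had none in either list.

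FXR chromatin immunoprecipitation sequencing (ChIP-seq) was performed on liver of male C57BL/6 mice of 2 genotypes. The controls (WT) were Bcl6 fl/fl mice, in which both Bcl6 alleles are floxed and intact. Bcl6 LKO mice carry the same floxed alleles plus an albumin-Cre transgene, which is active in hepatocytes, so that other liver cells keep Bcl6 (LKO). Each genotype had 2 ChIP libraries and 1 input library of sonicated chromatin without antibody. BCL6 is a transcriptional repressor, and the comparison addresses whether FXR occupies the same sites when it is lost. The age of the mice and the hour of harvest, on which the expression of clock genes depends, were not given in the sources used here.

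The clock is a transcriptional feedback loop. CLOCK and BMAL1, the product of Arntl, activate Per and Cry genes through E-box elements, and the PER and CRY proteins then inhibit CLOCK and BMAL1. In a second loop the nuclear receptors REV-ERBα (Nr1d1) and REV-ERBβ (Nr1d2) repress Arntl, and in the output of the clock DBP activates genes with D-box elements. In liver this loop drives daily rhythms of metabolic genes, bile acid synthesis among them. FXR typically binds with RXR to IR1, a pair of inverted AGGTCA elements with 1 base between them.

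The authors pooled both ChIP libraries of a genotype before they called peaks, so a count of peaks has no spread between replicates. The pooled libraries held 21906335 tags in WT and 43924876 in LKO. WT replicate 2 was shallow, with 2883717 tags against 19022618 to 22637613 in the other ChIP libraries, so that 86.8% of the WT tags came from replicate 1. The log2 tags of a peak were deposited in 1 table per genotype, each scaled on its own. Library values are therefore compared directly only within a genotype, and peak strength, the mean log2 tags of both ChIP libraries, is given as a percentile of the own list.

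The sequences of the peaks that carry the results are shown first, read from the plus strand of GRCm38.p6. Only 2 sites of a clock gene resembled an IR1. They lay in intron 6 of Per2 (chr1:91441914-91442124) and 1432 bp upstream of the transcription start site (TSS) of Nr1d1 (chr11:98776704-98776914), and capitals mark the IR1.
Per2 intron 6: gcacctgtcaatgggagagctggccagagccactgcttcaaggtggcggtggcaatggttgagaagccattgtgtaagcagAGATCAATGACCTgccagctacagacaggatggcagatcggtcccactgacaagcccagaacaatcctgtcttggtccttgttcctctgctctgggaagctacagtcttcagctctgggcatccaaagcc
Nr1d1 upstream: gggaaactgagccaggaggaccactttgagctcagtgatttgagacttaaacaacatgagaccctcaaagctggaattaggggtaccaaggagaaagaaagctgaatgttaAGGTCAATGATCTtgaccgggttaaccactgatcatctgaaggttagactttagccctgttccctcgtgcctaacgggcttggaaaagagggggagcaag
Counted from 1 at the left end of the IR1, the Per2 site carries the substitution G3A and the Nr1d1 site C11T. Read on the opposite strand the Per2 site is AGGTCATTGATCT, which differs from the Nr1d1 site AGGTCAATGATCT only in the spacer base. Among the 447 WT peaks whose best IR1 had 1 mismatch, 79 (17.7%) had it at position 3 or 11, which are the same place in the 2 arms. In LKO the share was 15.9%. Both shares are close to what 2 of the 12 scored bases would hold if mismatches were spread evenly. The Per2 and Nr1d1 sites lay 18 and 12 bp from the centres of the WT peaks.

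The strongest clock gene peaks had no such element. The peak in intron 1 of Per2 (chr1:91455898-91456108) is shown without capitals, because none of the elements searched was found within 100 bp of its centre.
Per2 intron 1: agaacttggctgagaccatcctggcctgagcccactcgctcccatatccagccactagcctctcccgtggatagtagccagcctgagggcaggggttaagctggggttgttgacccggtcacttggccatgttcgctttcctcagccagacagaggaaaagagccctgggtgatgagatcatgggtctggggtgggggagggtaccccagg
In the Per3 promoter peak (chr4:151044824-151045034) a D-box, TTATGTAA on the minus strand, lay 62 bp from the centre and is shown in capitals with 10 bases on each side.
Per3 promoter D-box: cccgagtaccTTACATAAcgcgcgggtc
The promoter peaks of Nr1d1 (chr11:98775598-98775808) and Dbp (chr7:45705074-45705284) are shown because they were in the WT list alone. Capitals mark an E-box, CACGTG, 5 bp from the centre of the Nr1d1 peak, and in Dbp the palindrome TTCNNNGAA, a core shared by BCL6 and STAT factors, 27 bp from the centre.
Nr1d1 promoter: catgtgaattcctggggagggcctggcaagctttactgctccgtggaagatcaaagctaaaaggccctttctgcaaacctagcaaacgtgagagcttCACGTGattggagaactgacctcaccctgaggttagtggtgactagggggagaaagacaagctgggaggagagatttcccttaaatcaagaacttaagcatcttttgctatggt
Dbp promoter palindrome: atttttttttTTCCGCGAAagaagtttgc

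Of the 23 WT peaks at clock genes, 18 (78.3%, 95% Wilson interval 58.1 to 90.3%) were overlapped by an LKO peak by 1 bp or more, where 49.5% of all WT peaks were. All 18 LKO peaks (100%, 82.4 to 100%) were overlapped by a WT peak, where 79.4% of all LKO peaks were, and each pair carried the same gene name. Thus 5 peaks were found in WT only and 0 in LKO only. The overlap of all WT peaks climbed with strength, from 13.9% in the weakest of 4 equal strength classes through 33.0% and 60.7% to 90.3% in the strongest. The clock gene peaks were overlapped in 1 of 1, 3 of 5, 5 of 8 and 9 of 9 cases in these classes. Keeping only peaks at or above the median strength of their list left 17 WT and 7 LKO clock gene peaks. The overlapped share of the former was then 41.2%, below the 53.0% of all WT peaks kept. A WT peak whose LKO partner was below the LKO median counted as not overlapped here. Against the full LKO list, the same WT peaks were the 5 of 8 and 9 of 9 given above.

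**Figure D1:**
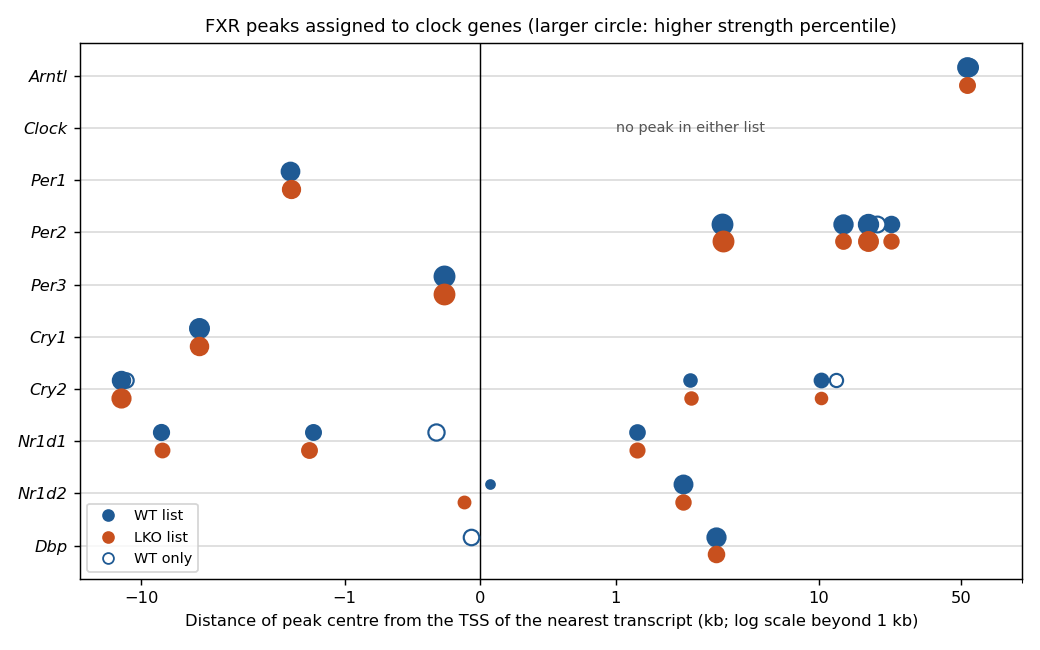
Positions of the 23 WT (blue) and 18 LKO (orange) FXR peaks at the clock genes, as distance of the peak centre from the TSS in kb (linear within 1 kb, log scale beyond), with larger circles for a higher strength percentile in the own list. The 5 open circles are the WT peaks without an LKO peak, at Per2, Nr1d1, Dbp and Cry2 (2 peaks), and the 2 Arntl peaks of each list lie on top of each other.

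Most clock gene peaks lay in introns, 12 of 23 in WT and 10 of 18 in LKO. In the 2 lists as a whole 46.5% and 47.4% of peaks were intronic. Promoter peaks numbered 4 of 23 in WT, at Per3, Nr1d1, Nr1d2 and Dbp, and 2 of 18 in LKO, at Per3 and Nr1d2. In the whole lists 11.4% and 11.3% of peaks were in promoters. Within 5000 bp of the TSS lay 11 WT and 9 LKO peaks of clock genes, against 31.3% and 30.9% of all peaks. Paired peaks had centres a median of 20 bp apart. The pair at the Nr1d2 promoter was the least alike, with centres 191 bp apart and an overlap of 17 bp, and the next smallest overlap was 145 bp.

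In the positive arm of the loop only Arntl had peaks. Clock, which encodes the partner of BMAL1, had its nearest peak 505809 bp from its start site in WT and 505844 bp away in LKO, and that peak carried the name of Kdr. Arntl had 2 peaks in intron 2 of its annotated transcript, 53276 and 54444 bp downstream of the TSS in WT, and both were found in LKO. The first of them (chr7:113260636-113260846), which also lay over an exon of the predicted non-coding gene Gm33721, had log2 tags of 5.62 and 6.22 in the WT libraries and -0.23 in the WT input. In LKO it had 4.50 and 5.00, with -0.06 in the input. ChIP above input is what the peaks of both lists were selected for. This first peak was at percentile 85.4 of the WT list and at the median of the LKO list, while the second peak went from 68.3 to 11.3.

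Per1 and Per2, the period genes of the negative arm, differed in how many sites they held. Per1 had 1 peak, 1859 bp upstream of the TSS used by the authors (chr11:69096985-69097195). RefSeq has an alternative Per1 transcript with an exon there. The log2 tags of this peak were 4.98 and 5.78 in WT with -0.31 in input, and 5.29 and 5.26 in LKO with 1.66 in input. It stood at percentile 75.2 in WT and 70.6 in LKO. Among the LKO clock gene peaks only Per3 had a higher input, but intron 1 of Nr1d1 and of Cry2 were close, at 1.62 and 1.60.

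Per2 had 5 WT peaks and 4 LKO peaks, all in introns, spread from 3325 to 22500 bp downstream of the TSS in WT. In WT 9.98% of genes with any peak had 5 or more. The peak in intron 1, printed above, was the strongest clock gene peak of the LKO list. It had log2 tags of 6.86 and 7.75 in WT with -0.02 in input, and 7.50 and 7.32 in LKO with 0.36 in input, and reached percentiles 97.3 and 97.6. The predicted non-coding gene Gm35591 has an exon over this site on the opposite strand. The intron 6 peak with the IR1 had 5.93 and 6.98 in WT with 1.14 in input, and 6.17 and 6.02 in LKO with 0.15 in input, at percentiles 91.8 and 87.2. Of the WT peaks without an LKO peak, 1 lay in Per2, in intron 7 (chr1:91439969-91440179), with 4.16 and 5.47 in the ChIP libraries and -0.40 in input, at percentile 58.5.

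Per3 had a single peak, 264 bp upstream of the TSS, with its centre at the same base in both lists. It had the highest strength of the clock gene peaks in WT, with log2 tags of 7.17 and 7.79 and percentile 97.9, and it had 7.41 and 7.09 in LKO at percentile 96.9. It was also the clock gene peak with the most input tags, 1.88 in WT and 3.94 in LKO. Those values were above the 95th percentile of input over all peaks, 1.85 in WT and 2.49 in LKO, which held for 1 clock gene peak in each list. The difference between mean ChIP and input was 5.60 in WT and 3.31 in LKO. How far input bears on the Per3 peak was not tested.

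**Figure D2:**
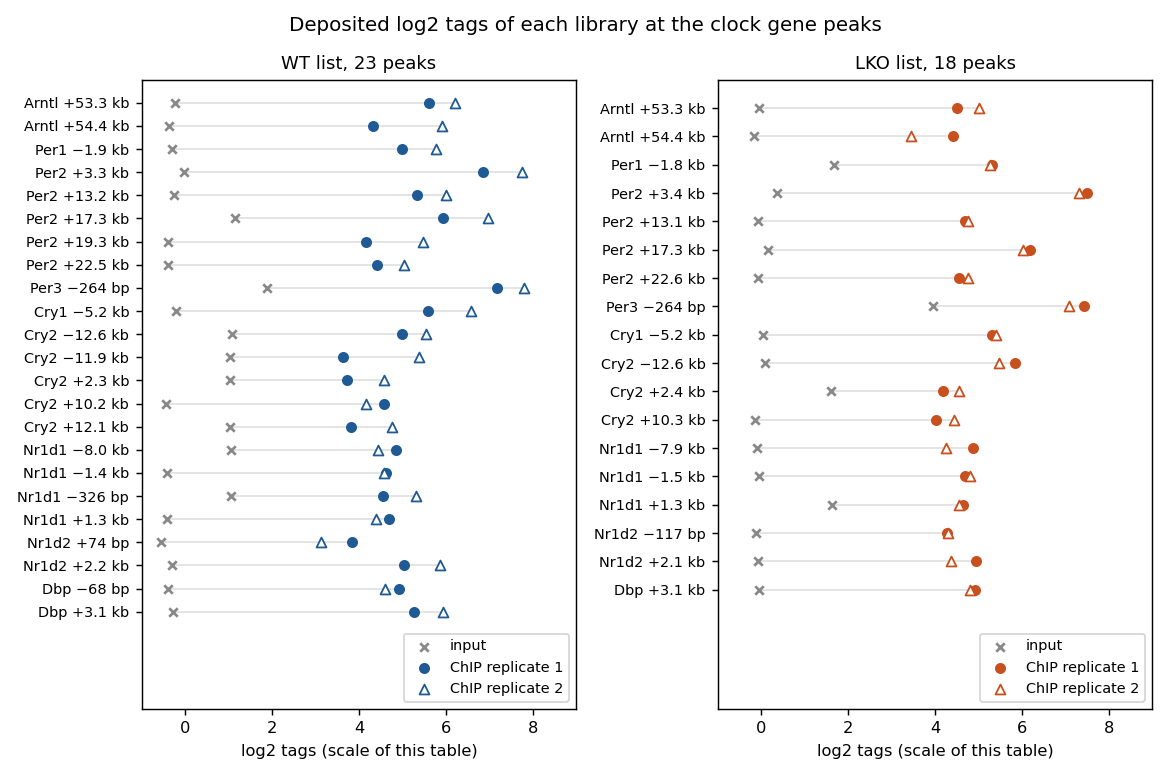
Deposited log2 tags of ChIP replicate 1 (circles), ChIP replicate 2 (triangles) and input (crosses) at each clock gene peak of the WT list (left) and the LKO list (right), labelled by gene and distance from the TSS. Each table has its own scale. Both ChIP libraries lie above input at all 41 peaks, for which the calling of peaks over input selects. The input crosses reach furthest right at Per3, 1.88 in WT and 3.94 in LKO.

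The cryptochrome genes encode the CRY repressors of CLOCK and BMAL1. Cry1 had 1 peak, 5218 bp upstream of the TSS (chr10:85190167-85190377), with an AGGTCA element 1 bp from the centre. Its log2 tags were 5.59 and 6.59 in WT with -0.21 in input, and 5.32 and 5.39 in LKO with 0.03 in input. The peak was at percentile 87.8 in WT and 72.6 in LKO.

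Cry2 had 5 peaks in WT and 3 in LKO. Its strongest lay 12629 bp upstream of the TSS (chr2:92446593-92446803), with log2 tags of 5.00 and 5.54 in WT with 1.08 in input, and 5.84 and 5.47 in LKO with 0.07 in input. This was 1 of 3 shared clock gene peaks that ranked higher in LKO than in WT, at percentiles 79.4 and 72.4. The peaks in introns 1 and 3 were weaker, between percentiles 25.2 and 40.9 in the 2 lists, and lay also in an intron of the non-coding gene D930015M05Rik, which overlaps Cry2.

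Both remaining Cry2 peaks were in the WT list alone. The peak 12130 bp downstream of the TSS (chr2:92421834-92422044) had 3.82 and 4.75, with 1.03 in input. The peak 11932 bp upstream (chr2:92445896-92446106) had 3.64 and 5.39, with 1.02 in input. They stood at percentiles 37.6 and 46.8. The upstream peak lay within 500 bp of the strongest LKO peak of Cry2, so that allowing such a gap brought the overlapped WT peaks from 18 to 19.

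Nr1d1, which encodes REV-ERBα, had 4 WT and 3 LKO peaks of middling strength, between percentiles 41.3 and 62.6. The promoter peak 326 bp upstream of the TSS was the strongest of the gene in WT, with log2 tags of 4.54 and 5.31 and 1.06 in input, and it was in the WT list only. In LKO the strongest was the peak with the IR1, which had 4.68 and 4.79 with -0.07 in input, and in WT 4.62 and 4.58 with -0.42 in input. The 3 peaks upstream of Nr1d1 in WT also lay over exons of the predicted non-coding gene Gm31862.

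Nr1d2, which encodes REV-ERBβ, had 2 peaks in each list. The stronger one, in intron 1 and 2152 bp downstream of the TSS (chr14:18236849-18237059), had log2 tags of 5.03 and 5.86 in WT with -0.30 in input, and 4.95 and 4.36 in LKO with -0.08 in input. It ranked at percentile 76.8 in WT and 45.8 in LKO. The promoter peak had the lowest rank of the clock gene peaks in WT, percentile 9.43, with 3.84 and 3.13, and it had 4.27 and 4.29 in LKO, at percentile 27.3. The 2 lists placed it on different sides of the TSS, with centres 74 bp downstream in WT and 117 bp upstream in LKO.

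Dbp, the D-box activator, had 2 WT peaks and 1 LKO peak. The shared peak lay in exon 3 (chr7:45708238-45708448), with log2 tags of 5.26 and 5.94 in WT with -0.28 in input, and 4.92 and 4.80 in LKO with -0.05 in input. It was at percentile 80.1 in WT and 55.0 in LKO. The promoter peak, 68 bp upstream of the TSS, was in the WT list alone and had 4.91 and 4.60 with -0.40 in input, at percentile 56.1. The LKO table gives values at its own peaks, so the LKO tags at this promoter and at the other 4 WT peaks were not analysed here.

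Set against their own list, clock gene peaks had a median strength percentile of 62.6 in WT, with a range of 9.43 to 97.9, and of 48.9 in LKO, with a range of 11.3 to 97.6. In WT 9 of 23 were in the strongest of the 4 classes and 6 were below the list median. In LKO 4 of 18 were in the strongest class and 11 were below the median. At 15 of the 18 shared peaks the percentile was lower in LKO, and the exceptions were Per2 intron 1, Cry2 12629 bp upstream and the Nr1d2 promoter. The lists differ in length, and the WT list holds many weak peaks absent from the LKO list. In the weakest class 13.9% of WT peaks but 57.5% of LKO peaks were overlapped. A peak of the same tags therefore ranks differently in each list, and the count of 15 does not measure lower binding. Its share over all shared peaks is not given here. The centred levels described below were higher in LKO at 11 of the 18 and lower at 7, where 48.0% of all shared peaks were lower. At 6 of the 18 the genotypes overlapped. As a scale, the strongest peak of Nr0b2, the FXR target that encodes SHP, stood at percentiles 99.9 and 99.6. The Abcb11 promoter, which drives the bile salt export pump, stood at 98.0 and 96.5, beside 97.9 and 96.9 at Per3. These percentiles do not take input into account. Input was higher at Per3, 1.88 in WT and 3.94 in LKO, than at Abcb11, 0.01 and 2.53.

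**Figure D3:**
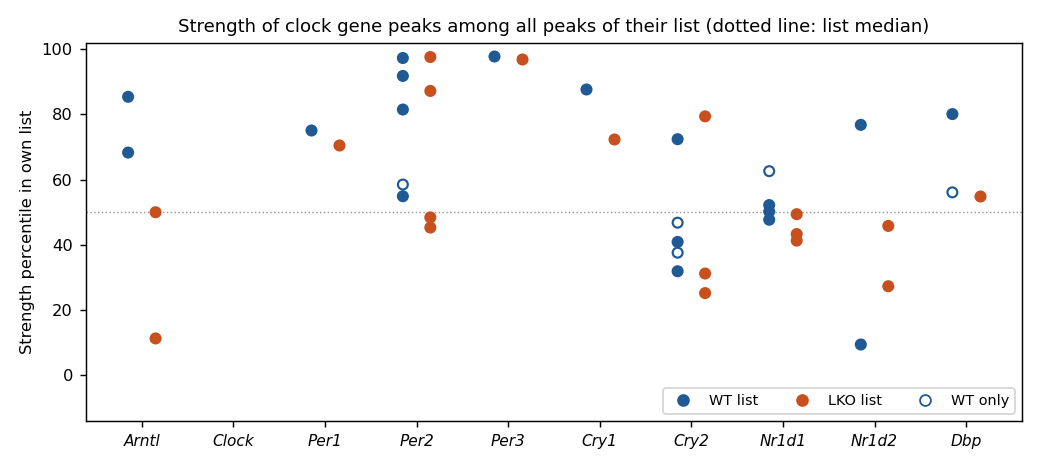
Strength percentile of each clock gene peak among all peaks of its own list, WT in blue and LKO in orange, with open circles for WT peaks without an LKO peak. Per3 and Per2 intron 1 lie above 96 in both lists, and the 5 open circles lie between 37.6 and 62.6.

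To set the genotypes side by side, each library was centred on its median over the 9918 shared peaks, and the LKO minus WT difference of the means was read beside the pooled SD of the 2 libraries per genotype. No test was run, since the tables had been scaled separately. Both LKO libraries were above both WT libraries at 7 of the 18 shared clock gene peaks, where 29.8% of all shared peaks were, and below both at 5, where 25.2% were. At the other 6 the genotypes overlapped. The median difference was 0.21 on the log2 scale over the clock gene peaks and 0.03 over all shared peaks, whose quartiles were -0.32 and 0.41. It ran from 0.07 without WT replicate 2 and 0.10 without LKO replicate 2 to 0.17 without LKO replicate 1, and on the deposited scale without centring it was -0.12, beside -0.30 over all shared peaks. Taken without sign, the median difference was 0.42 at the clock gene peaks and 0.36 over all shared peaks. It was larger than the pooled SD of the same peak at 14 of the 18 clock gene peaks, where this held for 63.2% of all shared peaks.

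Sites of the same gene went different ways. In Per2 the centred level of the intron 1 peak was 2.03 ± 0.26 (SD, n = 2) in WT and 2.46 ± 0.01 in LKO, which is higher by 0.43 with a pooled SD of 0.19. The intron 4 peak was at 0.40 ± 0.11 in WT and -0.23 ± 0.19 in LKO, lower by 0.63 in LKO with a pooled SD of 0.15. The intron 6 peak with the IR1 did not separate the genotypes, with 1.18 ± 0.37 in WT, 1.16 ± 0.03 in LKO and a difference of -0.03. In Nr1d2 the intron 1 peak was lower in LKO, with a difference of -0.46 and a pooled SD of 0.25. The promoter peak was higher by 1.12 with a pooled SD of 0.62, although the 2 lists placed it at different positions. The size of that difference depended on the WT library used. It was 0.51 without the shallow WT replicate 2 and 1.74 without WT replicate 1.

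Both Arntl peaks were lower in LKO. The first had 0.60 and 0.68 in the WT libraries and -0.55 and 0.15 in the LKO libraries, with a difference of -0.84 and a pooled SD of 0.35. The second had a difference of -0.86, but its pooled SD was 0.66 and the genotypes overlapped. Without WT replicate 2 the difference at this second peak was -0.32. Dbp exon 3 had 0.25 and 0.41 in WT and -0.12 and -0.05 in LKO, which gives a difference of -0.41 with a pooled SD of 0.09. Cry1 was lower by 0.41 with a pooled SD of 0.27, and its lower WT library was only just above its higher LKO library, 0.57 against 0.54. Without WT replicate 2 its difference was -0.17.

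All 3 shared peaks of Cry2 and all 3 of Nr1d1 had differences above 0. The Cry2 peak 12629 bp upstream had -0.01 and 0.01 in WT and 0.79 and 0.62 in LKO, higher by 0.71 with a pooled SD of 0.09. The genotypes were apart by a narrower margin at the other sites that were higher in LKO. The Cry2 intron 1 peak differed by 0.55 with a pooled SD of 0.33, its higher WT library being at -0.96 and its lower LKO library at -0.87, and without LKO replicate 2 the difference was 0.26. The upstream IR1 peak of Nr1d1 differed by 0.47 with a pooled SD of 0.32, but its nearest libraries were at -0.40 and -0.36, and without WT replicate 2 the difference was 0.19. Per1 differed by 0.23 with a pooled SD of 0.16, its nearest libraries were at 0.24 and 0.25, and without WT replicate 1 the difference was 0.09. The intron 9 peak of Per2 differed by 0.25 with a pooled SD of 0.21, its nearest libraries were at -0.504 and -0.502, and without LKO replicate 2 the difference was 0.05. The Per3 promoter differed by 0.10 and the genotypes overlapped. Leaving out 1 library at a time turned the sign at 4 peaks, Per2 intron 6, Cry2 intron 3, Nr1d1 intron 1 and Nr1d1 7976 bp upstream, each of which had overlapping genotypes.

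**Figure D4:**
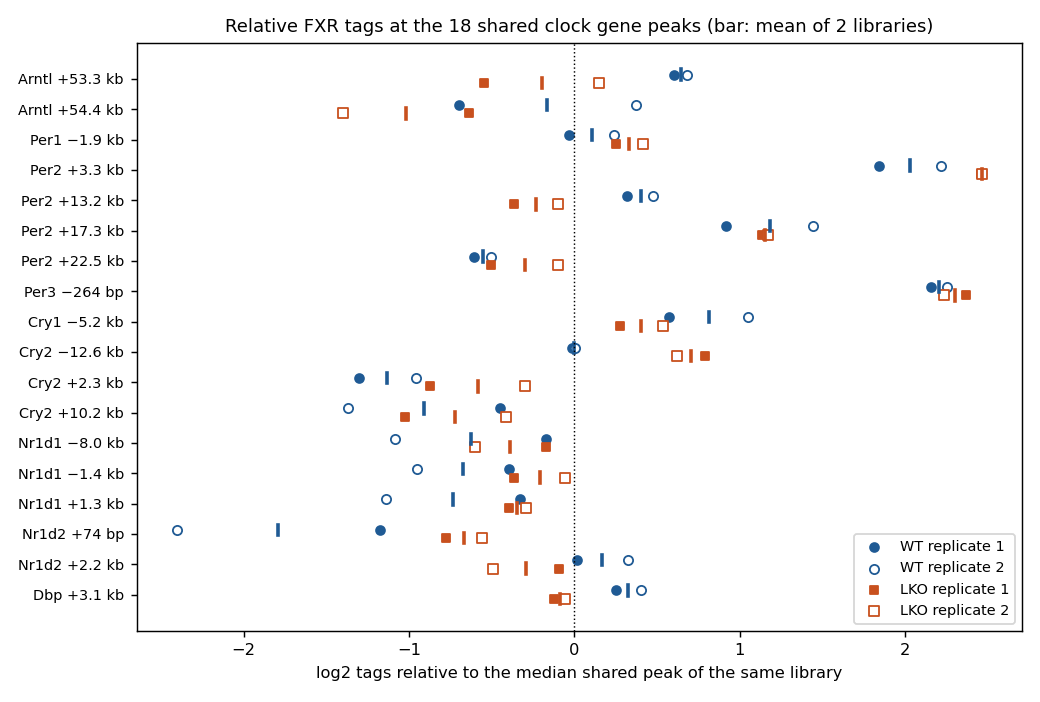
Log2 tags of the 18 shared clock gene peaks relative to the median shared peak of the same library, for WT replicates (blue circles) and LKO replicates (orange squares), filled for replicate 1 and open for replicate 2, with a bar at each mean of 2 libraries. The genotypes are apart at Arntl +53.3 kb, Per2 +13.2 kb, Cry2 −12.6 kb and Dbp +3.1 kb, and they overlap at Per3 and Per2 +17.3 kb.

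The Peak Score, the pooled ChIP tags per 10000000 tags of the pooled library, gave another order of the genotypes. It was lower in LKO at all 18 shared clock gene peaks, with log2 ratios from -1.83 at the first Arntl peak to -0.32 at the Cry2 upstream peak and a median of -0.91. Over all shared peaks it was lower at 95.7%, with a median of -0.98, and 8 of the 18 clock gene peaks lay below that median. Relative to all shared peaks the score thus placed the clock genes near the middle, as the centred log2 tags did. The scores rested on an estimated 36 to 371 pooled tags per peak in WT and 52 to 445 in LKO.

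Sequence elements were searched within 100 bp of each peak centre on both strands. An IR1 in which no more than 2 of the 12 scored bases mismatched was found at 2 of 23 WT clock gene peaks (8.70%), against 11.8% of all WT peaks and 0.893% of windows of the same length 2000 bp away. In LKO it was found at 2 of 18 (11.1%), against 16.2% of all LKO peaks. With no more than 1 mismatch allowed, the same 2 peaks remained in each list. They then stood against 2.46% of all WT peaks and 3.55% of all LKO peaks. The direction of the comparison thus depended on the cutoff and rested on 2 peaks. A single AGGTCA was found at 12 WT clock gene peaks (52.2%) and 8 LKO clock gene peaks (44.4%), against 40.3% and 41.3% of all peaks. At Per3 and Per2 intron 1, the strongest sites, the closest match to an IR1 had 4 mismatches and no AGGTCA was found.

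Elements of the clock itself occurred at a few of the sites. An E-box was found at 3 WT clock gene peaks (13.0%), the Nr1d1 promoter, Nr1d1 intron 1 and Cry2 intron 3, against 5.00% of all WT peaks, and a D-box at 2 (8.70%), the Per3 promoter and Nr1d1 intron 1, against 1.12%. The TTCNNNGAA palindrome was found at 2 WT clock gene peaks, the Dbp promoter and Cry2 11932 bp upstream, or 8.70% against 6.56% of all WT peaks, and at 1 LKO peak, in Per2 intron 9. In RefSeq promoters of GRCm38.p6, from 250 bases before to 50 after a gene start, 9 of the 10 clock genes were matched, and Per2 was not. An E-box stood in the promoters of Per1 and Cry1, with 8.09% of all genes having one, and a D-box in that of Per3, with 1.11% of all genes having one.

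A wider list of 18 clock-related genes was counted in the same way, namely Npas2, Arntl2, Rora, Rorb, Bhlhe40, Bhlhe41, Nfil3, Tef, Hlf, Ciart, Csnk1d, Csnk1e, Fbxl21, Btrc, Fbxw11, Timeless, Usp2 and Nampt. Of these, 15 had a WT peak and 13 an LKO peak. They held 50 WT and 29 LKO peaks, of which 24 were overlapped in each list. That is 48.0% of the WT and 82.8% of the LKO peaks, near the 49.5% and 79.4% of all peaks. The strongest shared site was at the promoter of Usp2, a deubiquitinase, with log2 tags of 8.56 and 9.50 in WT and 8.88 and 8.94 in LKO, though its inputs of 4.56 and 4.51 were also high. The next were assigned to Nampt, Bhlhe40, Tef and Rora, at WT percentiles of 99.2, 99.1, 97.5 and 96.6. Nampt encodes the rate-limiting enzyme of NAD salvage and Bhlhe40 a repressor that binds E-boxes. Tef encodes a D-box activator related to Dbp, and Rora activates Arntl. The Nampt site was intergenic, 138112 bp upstream of the TSS, and the Tef site was intergenic, 20167 bp downstream. Those of Bhlhe40 and Rora lay 1991 bp upstream and 1470 bp downstream.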

How the data were processed

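FXR ChIP-seq covered 6 liver samples: 2 ChIP libraries and 1 input library per genotype, grouped by their labels. The authors aligned reads to mm10 with Bowtie, kept unique alignments and made HOMER tag directories. The submitters' processing notes name Bowtie 1.2 and HOMER 4.10. Per the file headers, HOMER pooled both ChIP libraries per genotype, called factor-style peaks over the input, and the authors kept those that passed DESeq2 against input. The deposited log2 values per library are headed tag counts, but they are not whole and some lie below 0, so they were taken as regularized log2 tags. The deposited Peak Score is a signal, tags per 10000000 of the pooled ChIP libraries. The columns of fold change and p-values hold the authors' own ChIP against input test and were not used. The labels do not say whether replicates were separate animals, so SDs measure only the spread between libraries.

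Peaks were 211 bp in WT and 205 bp in LKO. Overlap needed 1 bp. Depth was read from the file headers, and intervals are 95% Wilson intervals that cover counting error only. Sequence came from GRCm38.p6 (RefSeq), which has the coordinates of mm10. The TSS distances of the authors matched it within 2 bp at 41 of 41 clock gene peaks. Scripts used Python 3.11.15 with scipy 1.17.1, pandas 2.3.3, numpy 2.4.6 and, for plots, matplotlib 3.10.9, and overlaps and IR1 matches were tested on simulated data. Alternatives covered the overlap rule, the lists, centring, replicates and the IR1 match. Library values were to be given for the strongest peak of each gene, shared promoter peaks and peaks of 1 list. Part of the wider list of clock-related genes is not reported here. The members and lists were chosen with earlier results of these data known.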

Additional observations from a re-analysis of the deposited data

How the results depend on the processing

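The rule found 23 WT and 18 LKO peaks. Within 50 kb of a RefSeq gene start there were 31 and 21 under any gene name. The Arntl peaks lay further from that start and were not among them. Without peaks of high input the rule gave 22 and 17. Keeping peaks at or above the list median strength left 17 WT and 7 LKO clock gene peaks. The overlapped share of WT peaks, counted only against the LKO peaks kept, was then 41.2% (7 of 17), where all WT peaks gave 53.0%. The share was 73.9% with a reciprocal overlap of 50%, 82.6% with a gap of 500 bp and 80.0% with lists of the same length, where all WT peaks gave 68.3%. The median LKO minus WT difference of shared clock gene peaks was -0.12 without centring, where all shared peaks gave -0.30, and -0.91 from the Peak Scores, an alternative chosen after seeing the data. Without 1 replicate at a time it ran from 0.07 to 0.17, against 0.21 with all libraries. The WT median percentile was 65.2 by Peak Score, and 67.6 to 69.3 without 1 WT replicate. Leaving out 1 library at a time, 14 of 18 peaks kept their sign. The cause of these shifts was not tested. No paired analysis was possible because the values come from no test: tests were kept within a table, and each table holds 1 genotype. WT replicate 2 was the shallowest ChIP library, with 2883717 tags.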

Other observations

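Some FXR peaks lay near clock genes under the name of another gene. A peak in intron 20 of Per2 was assigned to Hes6, a HES family repressor, and was found in both lists, at percentiles 50.8 in WT and 35.2 in LKO. The promoter of Hes6, 45925 bp from the Per2 start site, held a shared peak with log2 tags of 6.39 and 6.51 in WT with -0.15 in input, and 6.34 and 6.35 in LKO with 1.73 in input, at percentiles 91.7 and 90.2. Around Per1, WT peaks without an LKO peak were assigned to Tmem107, Snord118 and Hes7, at percentiles 31.1, 20.5 and 38.3. Near Nr1d1, WT peaks without an LKO peak were assigned to Thra and Msl1, at percentiles 4.51 and 60.3. Near Dbp, a WT peak without an LKO peak was assigned to Sphk2, at percentile 58.8. Near Arntl, 1 LKO peak without a WT peak was assigned to 4930543E12Rik, 5917 bp upstream of the start of the RefSeq gene, with log2 tags of 4.25 and 3.62, at percentile 11.6. Counting every peak centred within 50 kb of a clock gene start site, whatever its name, gave 31 WT and 21 LKO peaks. Start sites here were those of RefSeq genes, not of the transcripts used by the authors. The nearest Arntl peak in WT was 82270 bp from that start, so the Arntl peaks of both lists fell outside this count.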
